A study of Mus musculus with 6 samples.

Results

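The genes of cytosolic RNA sensing described here are Ddx58, Ifih1, Dhx58, Mavs, Trim25, Rnf135 and Nlrx1. They were chosen by symbol from a list of the RIG-I-like receptor pathway, with no measured value in the rule, and they are 7 of 27507 gene identifiers in the table. RNA-seq of poly(A) RNA was made from L929, a mouse fibroblast line derived from connective tissue, in 3 libraries labelled STING KO and 3 labelled control, whose genotype label is WT. No treatment, RNA ligand or virus is named for either group, and how the STING allele was disrupted and whether the STING KO cells are 1 clone are not stated in the labels. Nothing in the labels says that the libraries of a group come from separate cultures, so p-values measure the spread between these libraries, which may be technical. The comparison asks whether loss of STING, the adaptor of cytosolic DNA sensing, goes with other RNA levels of the parallel RNA sensing pathway.

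RIG-I-like receptors are RNA helicases that bind viral RNA in the cytosol. RIG-I and MDA5 pass the signal through their caspase recruitment domains to the adaptor MAVS on mitochondria, which makes the kinases TBK1 and IKK epsilon activate IRF3 and IRF7 and thereby induces type I interferon. STING uses the same kinases downstream of the DNA sensor cGAS. The receptor genes are themselves interferon-stimulated genes in many cells, fibroblasts among them.

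Because interferon acts on interferon-stimulated genes through response elements bound by IRF proteins, windows around the starts of the 7 genes were searched. The search was for a core of that element, GAAANNGAA, on both strands. RefSeq windows of GRCm38.p6, from 250 bases before to 50 bases after each start, were found for 6 of the 7 genes, and the window of Dhx58 was not analysed here. Ddx58, Ifih1 and Trim25 held the core, which 8.56% of all 32851 windows hold, and Mavs, Rnf135 and Nlrx1 did not. In Ddx58 (chr4:40239803-40239832 for the bases shown, minus strand) the match begins at base 4, counting the start as base 1, in a UTR of a coding transcript, and reads on the opposite strand. Ifih1 held a match that begins at base 33 (chr2:62646206-62646235, minus strand), which GENCODE M21 places in an exon of a noncoding transcript alone. A further Ifih1 match, on the opposite strand, begins 112 bases before the start (chr2:62646348-62646377). In Trim25 (chr11:88999384-88999413, plus strand) the match reads on the opposite strand and begins 9 bases before the RefSeq start, within a UTR in GENCODE M21. The 4 stretches are shown 5′ to 3′ on the strand of the gene, to set the receptor genes beside Trim25, with the match in capitals.
Ddx58: ctgaggcagtTTCGATTTCctatggccagc
Ifih1, after the start: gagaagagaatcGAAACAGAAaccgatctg
Ifih1, before the start: agaattcgcgTTCCCTTTCctgtttctcac
Trim25: gcccctcctgTTCAGTTTCgattccttcct
The letters TTCNNNGAA, which STAT dimers bind, were at 1 site in the overlapping windows of Nlrx1 and in 8.30% of all windows, and in no window of the other 5 genes. A match is a description of letters and not a measured binding site.

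Values are normalized counts, which are gene counts divided by a size factor of each library, and the library totals ran from 14382072 to 14526606. All 9 fibroblast markers passed the minimum for testing, with summed levels of 197458 to 211552 in STING KO and 183999 to 196022 in control. Over all genes STING KO replicate 3 and control replicate 2 differed most from the other libraries of their group (chi-square per degree of freedom 5.15 to 10.6, against 3.05 for the remaining STING KO pair and 2.41 for the remaining control pair). They lay at 21.1 and 15.2 on the first principal component (40.3% of the variance), with STING KO replicate 1 at -12.1 and control replicate 3 at -21.7 at the other end. STING KO replicate 1 and control replicate 3 stood apart in hepatocyte markers, which summed to 5082 and 5341, against 281 to 664 in the other STING KO libraries and 247 to 628 in the other control libraries. Macrophage and leukocyte markers summed to 1366 to 1544 in STING KO and 1342 to 1550 in control. Most of this was Cd68 (797 ± 56.7 in STING KO, 714 ± 51.7 in control) and Cd74 (562 ± 20.5 and 622 ± 44.4, SD, n = 3 each). Of the 8 markers 3 were under the minimum, among them the defining marker Adgre1 at 0 to 4.97. Lyz2, which passed, was at 71.3 in STING KO replicate 1 and 97.4 in control replicate 3, against 15.96 to 22.1 elsewhere. Csf1r was also highest in these libraries with high hepatocyte markers (41.6 and 49.7, against 27.95 to 33.9 in the others). Cd14 was at 46.5 in STING KO replicate 1 but at 19.9 in control replicate 3, the lowest of the control libraries. Epithelial and endothelial markers summed to 505 to 618 in STING KO and 447 to 524 in control, with 5 of 7 under the minimum. Most of this was Krt8, at 523 ± 39.8 in STING KO and 441 ± 28.3 in control (SD, n = 3 each). Its groups did not overlap, as in 12.1% of all tested genes, and it was not called (limma adjusted p = 0.717). Krt18, under the minimum, was at 36.6 in STING KO replicate 1 and 39.7 in control replicate 3, against 2.99 to 8.99 in the other libraries. RNA of the targeted gene (Tmem173 in the table, the gene of STING) was at 82.1, 80.6 and 93.4 in STING KO, against 329, 313 and 311 in control, and goes with the labels of all 6 libraries. Across 12408 tested genes, limma called 32 lower and 0 higher in STING KO at an adjusted p of at most 0.05 (Benjamini-Hochberg). The authors' deposited table calls 35 lower and 6 higher. Leaving out libraries moved these counts: limma called 90 lower and 40 higher without STING KO replicate 3 and control replicate 2, and 12 lower and 0 higher without STING KO replicate 1 and control replicate 3, both chosen after seeing the data.

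None of the 7 RNA sensing genes was called, against 0.258% of all tested genes. None of the 6 that could still be tested, all but Ifih1, was called without STING KO replicate 3 and control replicate 2, where 1.06% of tested genes were, or without STING KO replicate 1 and control replicate 3, where 0.0983% were. All 7 passed the minimum of 10 normalized counts in 3 libraries, Ifih1 narrowly, with 10.04 in STING KO replicate 3 as the lowest of its 3. The 95% interval of the fold change lay within 1.5-fold in both directions for 6 of them, all but Ifih1, and within 2-fold for all 7. Over all tested genes these shares were 85.4% and 95.1%. No gene of the 7 had groups that do not overlap, against 12.1% of all tested genes. Before adjustment, 0 of the 7 had a limma p of at most 0.05, against 6.37% of all tested genes, and limma-voom called 0 of them. The authors' deposited table also calls 0 of the 7, against 0.294% of the genes to which it gives an adjusted p. The median log2 fold change of the 7 genes was -0.01 and that of all tested genes was 0.00, with 3 positive and 4 negative signs among the 7.

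**Figure D1:**
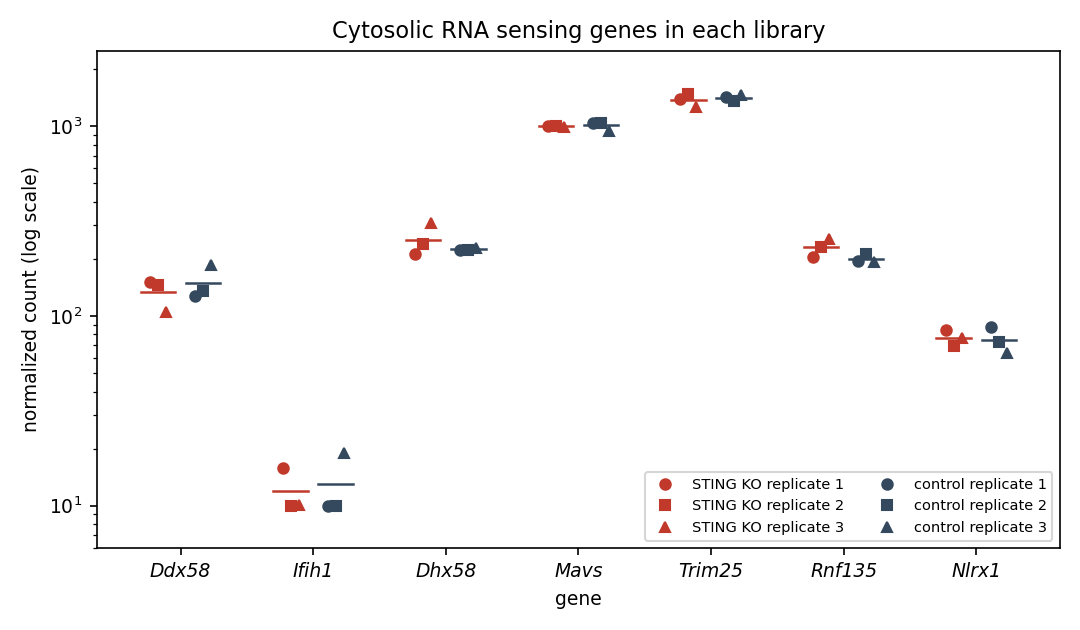
Normalized counts (log scale) of the 7 RNA sensing genes in each library, STING KO in red on the left and control in dark blue on the right of each gene, with a line at the group mean. The groups overlap for every gene, and Ifih1, at 9.96 to 18.9, is lowest.

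Ddx58 encodes RIG-I, the receptor for short RNA with a triphosphate end. The gene (ENSMUSG00000040296, chromosome 4, 40203773 to 40239828 on the minus strand of GRCm38, protein coding) had 151, 146 and 104 normalized counts in the STING KO libraries and 128, 136 and 187 in the control libraries. The highest value was in control replicate 3 and the lowest in STING KO replicate 3, while the other 4 libraries lay between 128 and 151. The means were 134 ± 25.8 in STING KO and 150.1 ± 32.02 in control (SD, n = 3 each), and the log2 fold change was -0.16 (SE 0.18, 95% interval -0.56 to 0.24, limma adjusted p = 0.796). It was 0.00901 without STING KO replicate 3 and 0.00666 without control replicate 3, so the sign rested on both of these libraries. Within each group the coefficient of variation was 19.2% in STING KO and 21.3% in control, where counting alone would give 8.39% at this level. In a bulk library, fewer cells with an RNA and less of it per cell cannot be told apart.

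Ifih1 encodes MDA5, the receptor that assembles along long paired RNA. It was the least abundant of the 7 genes (ENSMUSG00000026896, chromosome 2, 62595798 to 62646255, minus strand, protein coding), with 15.8, 9.96 and 10.04 normalized counts in STING KO and 9.98, 9.98 and 18.9 in control. Both higher values were in the libraries with high hepatocyte RNA, and the other 4 libraries were nearly equal at about 10. The means were 11.9 ± 3.37 in STING KO and 12.9 ± 5.14 in control (SD, n = 3 each), and the log2 fold change was -0.08 (SE 0.37, limma adjusted p = 0.949). The 95% interval of -0.90 to 0.74 leaves room for 53.4% to 167% of the control level. It is not a detection limit: with p-values adjusted over all tested genes, changes beyond this range could also go without a call. Counting alone gives a coefficient of variation of 28.3% here, against the 28.2% measured in STING KO and 39.7% in control.

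Dhx58 encodes LGP2, which has the helicase of the family without its caspase recruitment domains and modulates signalling by the other receptors. Its values (ENSMUSG00000017830, chromosome 11, 100694884 to 100704271, minus strand, protein coding) were 213, 239 and 307 in STING KO and 224, 223 and 228 in control. The control libraries were nearly equal, with a coefficient of variation of 1.27% that is below the 6.47% of counting alone, and the STING KO libraries lay on both sides of them with 19.3%. The means were 253 ± 48.8 and 225 ± 2.86 (SD, n = 3 each) in STING KO and control. The log2 fold change was 0.15 (SE 0.12, 95% interval -0.13 to 0.43, limma adjusted p = 0.749), and it was 0.00199 without STING KO replicate 3 and -0.00357 without control replicate 2 as well. An antisense gene, Dhx58os, shares 141 exon bases with Dhx58, and no source used here gives the strand setting of the counts.

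Mavs, the adaptor that the activated receptors join on the mitochondrial outer membrane, had nearly equal levels in all libraries. The gene (ENSMUSG00000037523, chromosome 2, 131234063 to 131248025, plus strand, protein coding) was at 1007, 1008 and 996 in STING KO and at 1045, 1042 and 944 in control. The 3 STING KO values lay inside the range of the control values. The means were 1003 ± 6.32 and 1011 ± 57.8 (SD, n = 3 each) in STING KO and control, and the fitted log2 fold change of -0.01 (SE 0.06, adjusted p = 0.968 in limma) had a 95% interval from 90.7% to 109% of the control level.

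The ubiquitin ligases TRIM25 and Riplet modify RIG-I and promote its signalling. Trim25 (ENSMUSG00000000275, chromosome 11, 88999376 to 89020293, plus strand, protein coding) had 1391, 1483 and 1261 normalized counts in STING KO and 1427, 1364 and 1459 in control. STING KO replicate 2 was highest and STING KO replicate 3 lowest, so the control range lay within that of STING KO. The means were 1378 ± 112 and 1417 ± 48.7 (SD, n = 3 each) in STING KO and control, and the log2 fold change was -0.04 (SE 0.07, 95% interval -0.19 to 0.11, limma adjusted p = 0.857).

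Rnf135, the gene of Riplet, had the smallest p-value of the 7 genes and still did not pass. Its values (ENSMUSG00000020707, chromosome 11, 80183851 to 80199757, plus strand, protein coding) were 204, 232 and 255 in STING KO and 196, 211 and 193 in control. Only STING KO replicate 1 lay below the highest control library. The means were 230.3 ± 25.6 in STING KO and 199.96 ± 10.1 in control (SD, n = 3 each). The log2 fold change was 0.20 (SE 0.10, 95% interval -0.02 to 0.42), with a limma p of 0.074 before and 0.738 after adjustment over all tested genes. The authors' deposited table gives 0.20 (SE 0.15, p = 0.174, adjusted p = 1). Normalized counts of Trim25 per count of Rnf135 were 4.94 to 6.82 in STING KO and 6.45 to 7.57 in control, so this ratio overlapped between the groups too.

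Nlrx1 encodes a mitochondrial protein of the NOD-like receptor family that has been described as a brake on MAVS signalling. Its values (ENSMUSG00000032109, chromosome 9, 44252717 to 44268599, minus strand, protein coding) were 84.1, 69.7 and 76.3 in STING KO, against 87.9, 72.8 and 63.6 in control. Both the highest and the lowest value were control libraries. The means were 76.7 ± 7.23 in STING KO and 74.8 ± 12.3 in control (SD, n = 3 each), a log2 fold change of 0.05 (SE 0.15, 95% interval -0.29 to 0.38, limma adjusted p = 0.932). A gene on the other strand, Gm10686, shares 683 exon bases with it.

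**Figure D2:**
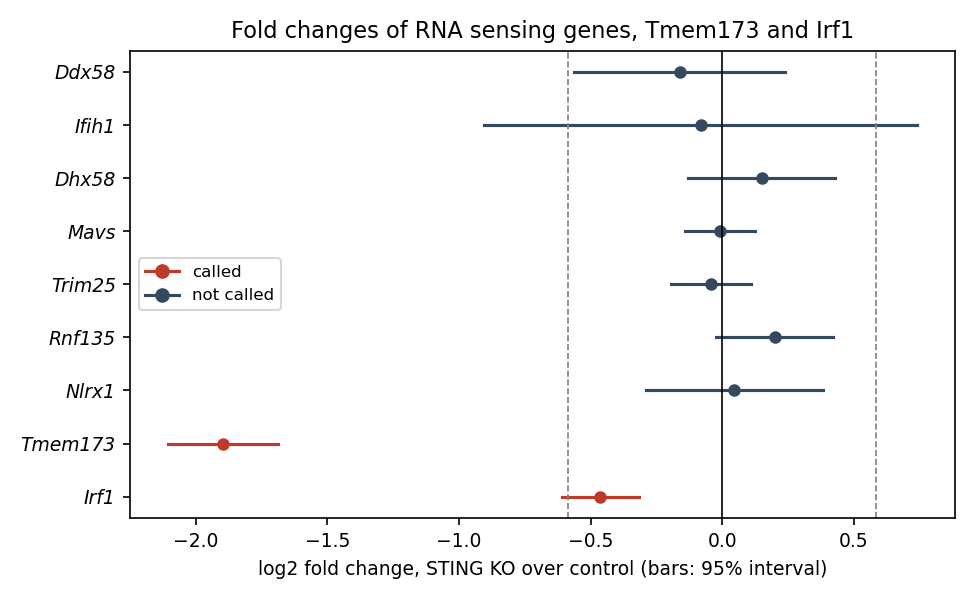
Log2 fold changes of STING KO over control (points) with 95% intervals (bars) from limma, with dashed lines at a 1.5-fold change. The 7 RNA sensing genes lie between -0.16 and 0.20 and all intervals cross 0, whereas Tmem173 (-1.90) and Irf1 (-0.46), in red, were called lower.

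Per length, the adaptor and TRIM25 were far more abundant than the receptors. Over all 6 libraries Mavs averaged 301 normalized counts per kilobase of merged exons (282 to 312), Trim25 243 (219 to 258) and Rnf135 101 (90.1 to 119). Among the receptors Dhx58 averaged 73.1 per kilobase (65.0 to 93.9), Ddx58 20.2 (14.8 to 26.5) and Ifih1 1.52 (1.22 to 2.31), while Nlrx1 was at 13.2 (11.1 to 15.3). Neighbours in this order overlapped for Rnf135 and Dhx58 and for Ddx58 and Nlrx1, and all other neighbours were apart. With the length of the longest coding transcript in place of merged exons the order was the same, but Ddx58 (27.0 to 48.2) no longer overlapped Nlrx1 (17.3 to 23.9).

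Ddx58 and Ifih1 varied more between libraries of 1 group than between the groups, and Dhx58 did so in STING KO, though not in the same libraries. On the log2 scale and relative to the mean of all 6 libraries, Ddx58 was at 0.42 and Ifih1 at 0.65 in control replicate 3, and at 0.11 and 0.40 in STING KO replicate 1. These are the libraries with Alb, serum albumin, at 2552 (STING KO replicate 1) and 2780 (control replicate 3), and the part of hepatocyte RNA in the levels of Ddx58 and Ifih1 was not tested. In STING KO replicate 3, Ddx58 was at -0.42 while Dhx58 was at 0.37 and Rnf135 at 0.25. Counts of Dhx58 per count of Ddx58 were 1.41, 1.63 and 2.94 in STING KO and 1.75, 1.65 and 1.22 in control, so both ends of this ratio were replicates numbered 3. Without STING KO replicate 1 and control replicate 3 the log2 fold changes were -0.09 for Ddx58, 0.28 for Dhx58, 0.26 for Rnf135, -0.03 for Trim25, -0.06 for Mavs and -0.13 for Nlrx1, with 0 of these 6 called. Ifih1 was then under the minimum for testing, with all 4 remaining libraries near 10. Without STING KO replicate 3 and control replicate 2 the log2 fold changes were -0.05 for Ddx58, -0.00357 for Dhx58, 0.16 for Rnf135, -0.00667 for Trim25, 0.02 for Mavs and 0.03 for Nlrx1, again with 0 of 6 called and Ifih1 under the minimum.

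**Figure D3:**
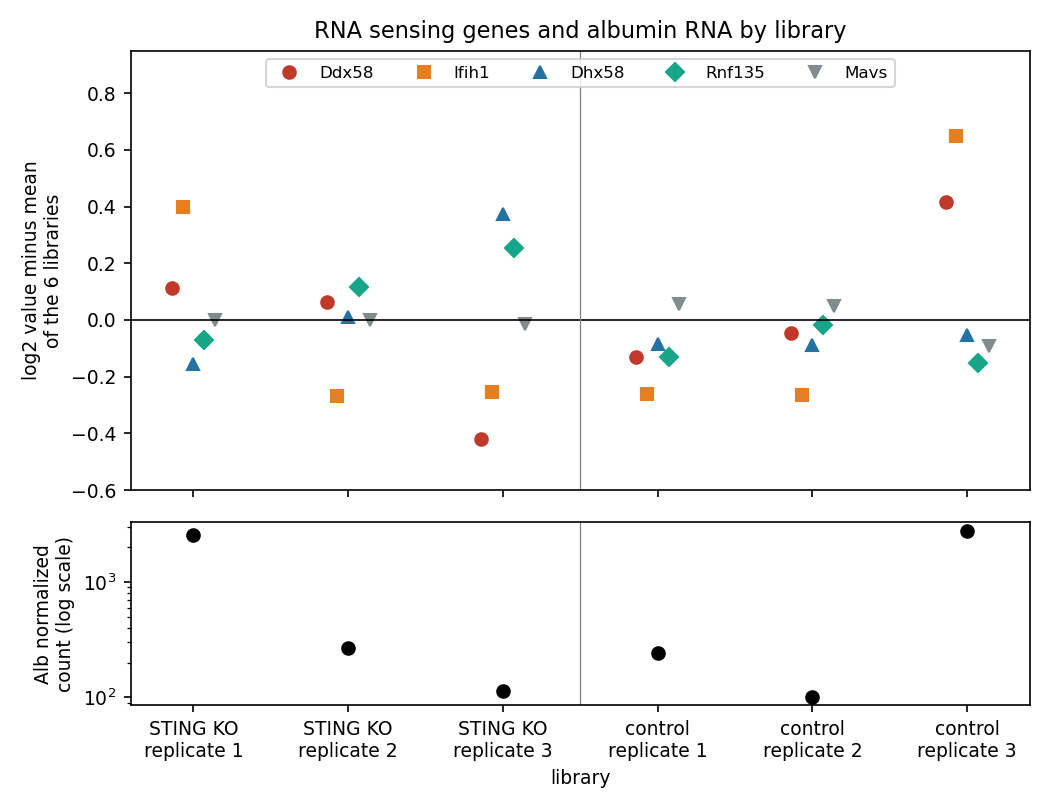
Upper panel, log2(normalized count + 0.1) of 5 RNA sensing genes minus the mean of the 6 libraries; lower panel, normalized counts of Alb (log scale); STING KO libraries on the left and control libraries on the right. Ddx58 and Ifih1 are highest of their group in the same libraries as Alb, Dhx58 and Rnf135 are highest in STING KO replicate 3, and Mavs stays within 0.10 of its mean.

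The mean log2 profile of the 3 receptors over the 6 libraries was set beside 10642 tested genes with a mean of at least 50. This mean does not stand for Dhx58. In control replicate 3 it was at 0.34, with Ifih1 at 0.65, Ddx58 at 0.42 and Dhx58 at -0.05. In STING KO replicate 3 it was at -0.10, with Dhx58 at 0.37. Ifih1, which weighs on it most in control replicate 3, had only 9.96 to 18.9 normalized counts. The genes most like the mean profile included Fmo5 (Pearson r = 0.972) and Shld3 (r = 0.968), as a description of 6 points picked from many genes. Fmo5, a flavin monooxygenase abundant in liver, was at 150.4, 95.6 and 86.4 in STING KO and at 78.9, 80.8 and 174 in control, so it was highest in both libraries with high albumin RNA.

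Around the receptors, 6 lists of pathway genes were read against all tested genes, of which 0.258% were called by limma, 6.37% had an unadjusted p of at most 0.05, 12.1% had groups that did not overlap and 50.8% had a negative sign. The lists were chosen with earlier results of these data known, so their shares are descriptions and not tests of enrichment. Of 13 tested positive regulators 0 were called, 0 had an unadjusted p of at most 0.05 and 1 had groups that did not overlap, with a median log2 fold change of -0.05. Prkra, the gene of the RIG-I and PKR partner PACT, had 610 ± 5.66 normalized counts in STING KO and 570.1 ± 57.7 in control (SD, n = 3 each). Mex3c, a ubiquitin ligase acting on RIG-I, had 547 ± 75.2 in STING KO and 635 ± 61.2 in control (SD, n = 3 each). Zcchc3 and Ppp1ca were under the minimum. Ppp1ca, a phosphatase gene that most cells use, is listed at 0 in all 6 libraries, so a 0 in this table cannot be read as absence.

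Signalling genes from MAVS to IRF3 and NF-kB had 0 of 19 called, against 0.258% of all tested genes, at a median log2 fold change of -0.07. An unadjusted p of at most 0.05 was found for 4 of the 19 (21.1%, against 6.37% of all tested genes), and groups that did not overlap for 4 (21.1%, against 12.1%). Traf3, the ubiquitin ligase that links MAVS to TBK1, was at 1237, 1279 and 1213 in STING KO and at 1485, 1358 and 1573 in control, and its log2 fold change was -0.24 (SE 0.06, limma adjusted p = 0.476). Every STING KO library of Traf3 lay below every control library, but the gene did not pass the test across all genes. Without STING KO replicate 3 and control replicate 2, Traf3 (adjusted p = 0.00878) and Nfkb1, the gene of the NF-kB subunit p105 (log2 fold change -0.28, adjusted p = 0.00261), were called lower by limma, Nfkb1 being named after its values were seen. Ikbke, the gene of IKK epsilon, had 197 ± 14.5 in STING KO and 235 ± 21.1 in control (SD, n = 3 each, limma adjusted p = 0.738).

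Negative regulators had 0 of 21 called, against 0.258% of all tested genes, at a median log2 fold change of -0.06. An unadjusted p of at most 0.05 was found for 3 (14.3%, against 6.37% of all tested genes), and groups that did not overlap for 4 (19.0%, against 12.1%). Tnfaip3, the gene of A20, a ubiquitin-editing brake on NF-kB and on RIG-I signalling, was at 205, 249.9 and 208 in STING KO and at 333, 290.3 and 306 in control. This is 71.3% of the control level (log2 fold change -0.49, SE 0.10, limma adjusted p = 0.167), which did not pass, though Tnfaip3 was called without STING KO replicate 3 and control replicate 2 (adjusted p = 0.0210). Nlrc5, a NOD-like receptor gene, was at 338 ± 20.6 in STING KO and 418 ± 14.3 in control (SD, n = 3 each, limma adjusted p = 0.349).

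Other cytosolic RNA sensors and their effectors had 0 of 22 called, against 0.258% of all tested genes, at a median log2 fold change of 0.02. The groups did not overlap for 3 (13.6%, against 12.1%), and 1 (4.55%, against 6.37%) had an unadjusted p of at most 0.05. The 1 gene was Dhx33, an RNA helicase, at 1230 ± 101 in STING KO and 1435 ± 79.8 in control (SD, n = 3 each, limma adjusted p = 0.717). Ifit3, an interferon-induced RNA response gene, was at 69.7 ± 12.9 in STING KO and 59.1 ± 5.36 in control (SD, n = 3 each, limma adjusted p = 0.744).

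Of 12 genes that the pathway induces, 9 were not tested. Ifnb1, Ifna4, Ifnl2 and Ifnl3 are listed at 0 in all 6 libraries, which as for Ppp1ca gives no level, and the other 5 (Cxcl10, Ccl5, Rsad2, Mx1 and Mx2) were under the minimum. The 3 that were tested had 0 called (against 0.258% of all tested genes) and 0 with an unadjusted p of at most 0.05 (against 6.37%), with a median log2 fold change of 0.16. Isg15, the ubiquitin-like modifier, was at 106 ± 8.22 in STING KO and 96.0 ± 16.9 in control, and Isg20, an exonuclease, at 166 ± 28.3 in STING KO and 144 ± 20.7 in control (SD, n = 3 each).

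Of 5 transcription factors that act on interferon response elements, Irf1 alone was called, which is 20.0% of them against 0.258% of all tested genes. This list too was chosen with earlier results of these data known. All 5 had a negative sign, against 50.8% of all tested genes, at a median log2 fold change of -0.12. Negative signs were also 84.6% of the tested positive regulators, 73.7% of the MAVS signalling genes and 66.7% of the negative regulators. They were 45.5% of the other RNA sensors and 33.3% of the genes that the pathway induces. Some signs lay near 0, such as those of the positive regulators Usp4 (log2 fold change -0.00220, SE 0.0471) and Ppp1cc (-0.0171, SE 0.0560). Such signs can turn with the scaling, as that of Mavs did (0.0106 under upper-quartile scaling). Of the 5 factors 2 had groups that did not overlap (12.1% over all). Irf1 had 307, 312 and 313 normalized counts in STING KO and 441, 414 and 429 in control, without overlap, and fell to 72.5% of the control level (log2 fold change -0.46, SE 0.06, limma adjusted p = 0.0217). The call of Irf1 was lost without STING KO replicate 1 (adjusted p = 0.185), STING KO replicate 2 (0.0761), control replicate 1 (0.214) or control replicate 3 (0.153), and without both libraries with high hepatocyte RNA (0.811), at log2 fold changes of -0.46 to -0.44, and it held without STING KO replicate 3 and control replicate 2 (0.00213).

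**Figure D4:**
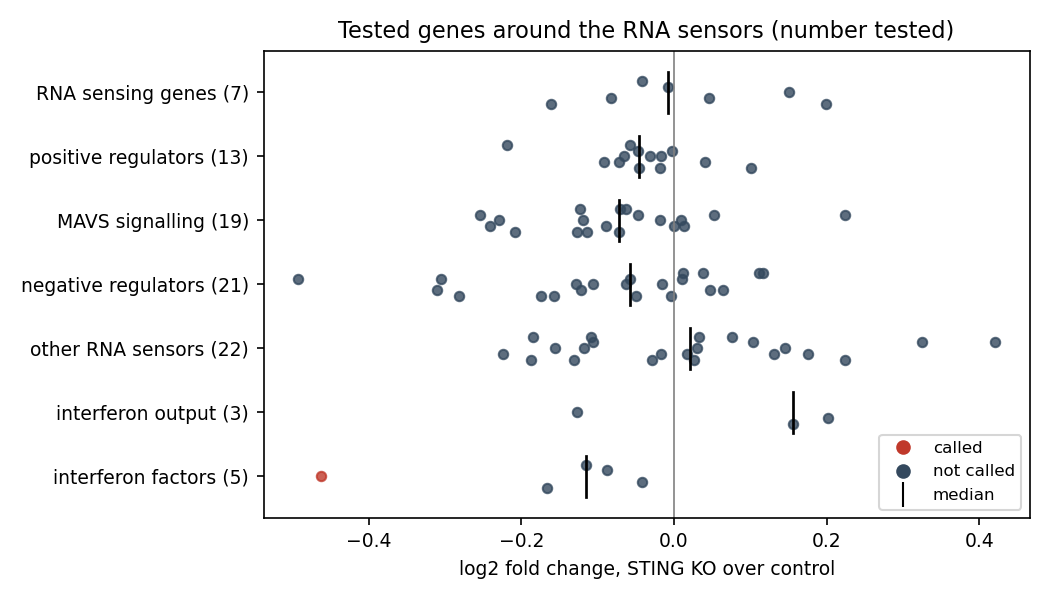
Log2 fold changes of STING KO over control for every tested gene of the 7 RNA sensing genes and of the 6 lists around them, with black lines at the medians. Irf1, in red at -0.46, is the only gene among them called with all 6 libraries, and the medians lie between -0.12 and 0.16.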

How the data were processed

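Groups and replicate numbers come from the sample titles. The authors deposited 1 table whose 6 sample columns hold a signal, gene counts divided by a size factor per library, as read from the values: each column rises in steps of 1 size, and 100% of its values divide by that step to within 0.01 of a whole number. Per the file headers, the authors' own comparison was deposited as a log2 fold change (STING KO over control), its error, a test score, and raw and adjusted p-values. The tools were, per the submitters' processing notes and with no role or order, DESeq2 1.4.5, RSEM 1.2.12, HISAT2 2.0.4 and Bowtie2 2.2.5, with builds GRCm38 and mm10. The first row of each identifier was kept (314 repeat rows left out). GENCODE M21 (GRCm38), which holds 27480 of the identifiers, gave coordinates and lengths.

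The limma package 3.58.1 (R 4.3.3), with trended prior variance and no covariate, was run on log2(normalized count + 0.1) for the 12408 genes with at least 10 in at least 3 libraries, and p-values were adjusted over all of them. Fold changes on this scale understate changes of low genes. The code was tested on simulated data. The planned count tests (edgeR, DESeq2) were not run: the steps (0.990 to 1.004) lie so near 1 that the values were not accepted as recovered counts, and limma-voom was added. Other alternatives were another pseudocount, other minima, upper-quartile and TMM scaling, a replicate block, leaving out libraries and the authors' test. Pairs of libraries within a group differed by more than counting noise (chi-square per degree of freedom 2.41 to 10.6), so no pair was taken for a repeat deposit of 1 library, which does not tell repeat preparations of 1 culture from separate cultures. Coefficients of variation given for counting cover counting error only.

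The members and the gene lists were chosen with earlier results of these data known. The rule for names takes all 7 members, the targeted gene and every called gene of the 6 pathway lists. It also takes the 2 largest changes per list at a mean of at least 50, and the 3 genes most like the mean profile of the receptors. Any other name was picked with its values in view. Some genes that the rule names are not reported here.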

Additional observations from a re-analysis of the deposited data

How the results depend on the processing

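None of the 7 RNA sensing genes was called under any of the alternatives that gave a value, 16 for each of the other 6 and 10 for Ifih1, which was under the minimum in the others. Of 106 such values 94 kept the sign and 12 turned it, for Ddx58, Ifih1, Dhx58, Mavs, Trim25 and Nlrx1. Other minima and the replicate block leave the log2 fold change unchanged and cannot turn it, so the 94 overstate how stable the signs are. The turned values came from leaving out libraries, except that of Mavs under upper-quartile scaling. Mavs was at 0.0106 under upper-quartile scaling and Nlrx1 at -0.13 without STING KO replicate 1 and control replicate 3. Without STING KO replicate 3 and control replicate 2, Dhx58 was at -0.00357, Mavs at 0.0199 and Isg15 at -0.0246. Leaving out 1 library at a time gave log2 fold changes of -0.267 to 0.00901 for Ddx58, -0.235 to 0.0306 for Ifih1, 0.00199 to 0.267 for Dhx58, -0.0570 to 0.0167 for Mavs, -0.0965 to 0.0205 for Trim25, 0.122 to 0.284 for Rnf135 and -0.0645 to 0.169 for Nlrx1. For Ifih1 that range covers the 3 libraries whose removal left it testable; with no minimum and no test, its difference was -0.301 without STING KO replicate 1, 0.0245 without STING KO replicate 3 and 0.222 without control replicate 3. The lowest adjusted p of the 7 in any setting was 0.380, for Rnf135. The count of 32 called genes was 21 to 35 when 1 library was left out, 21 of them without control replicate 1, and none was higher except 2 without control replicate 2; it was 41 (35 lower, 6 higher) in the authors' deposited test. It was 130 (90 lower, 40 higher) without STING KO replicate 3 and control replicate 2, with 2 MAVS signalling genes and 1 negative regulator among them, and 12 without the 2 libraries with high hepatocyte RNA, both alternatives chosen after seeing the data, as were limma-voom and the transcript length; the cause of these moves was not tested. Of the interferon transcription factors 0 were called without the 2 libraries with high hepatocyte RNA, and 0 to 1 when 1 library was left out. Replicate numbers gave no sign of pairing, as the deviations of same-numbered libraries had correlations of -0.183, -0.180 and -0.488. Library-wide differences enter these correlations, so they cannot show that the libraries were not handled in pairs. Under the replicate block 18 genes, 0 RNA sensing genes and 0 interferon transcription factors were called (Irf1 adjusted p = 0.293). The edgeR and DESeq2 alternatives were not run. At 10 to 19 normalized counts, depth limits Ifih1.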
